A study of Eriocheir sinensis with 9 samples.

Results

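The data describe how the eyestalk transcriptome of the Chinese mitten crab, Eriocheir sinensis, at 27 °C differed from that at 22 °C. The comparison used 3 RNA sequencing libraries from 27 °C and 3 from 22 °C, out of 9 libraries analysed in the series. Its members were the isoforms with a value of at least 1 FPKM in at least 3 of these 6 libraries, 86653 of the 267789 isoforms in the table. FPKM is a read abundance corrected for the length of the transcript and the size of the library. All crabs were wild type, healthy and between molts, and had been held at 25 °C before they were assigned to 7, 12, 17, 22, 27 or 32 °C, with 16 crabs in each of 3 parallel replicates. Temperature was taken from the library titles, because the treatment label of all libraries reads untreated. The labels give neither the length of exposure nor the number of crabs behind a library, so p-values measure only how far these libraries spread, and that spread may be technical.

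The eyestalk of a decapod crustacean bears the eye at its tip and contains visual ganglia and a neurosecretory system, the X-organ and sinus gland. This system releases peptides of the crustacean hyperglycaemic hormone family. One of these raises blood sugar, and another, the molt-inhibiting hormone, holds back ecdysteroid production in the Y-organ. Crabs are ectotherms, so their body temperature follows that of the water. The table lists numbered isoforms without gene names, and a lookup of the identifiers in the RefSeq gene table gave 0 matches. The eyestalk label was therefore not checked against marker genes, no pathway is described, and 4 isoforms are given by identifier. In tissue RNA, fewer cells of a type and less RNA per cell cannot be told apart.

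Libraries of the same temperature resembled each other more than libraries of different temperatures. The correlation of log2(FPKM + 1), taken over the 86653 isoforms, which are not independent of each other, was 0.779 to 0.796 among the 27 °C libraries and 0.787 to 0.817 among the 22 °C libraries. Between the temperatures it was 0.698 to 0.754. The 86653 include 3396 isoforms that reached 1 FPKM in all libraries of 1 temperature and in none of the other. Their entry favours a lower correlation between the temperatures, by an amount that was not tested. Replicate 3 at 22 °C lay nearest to the 27 °C libraries, at 0.728 to 0.754, against 0.715 to 0.742 for replicate 1 and 0.698 to 0.732 for replicate 2. Summed FPKM was 1933130 to 1993600 in the 27 °C libraries and 2007900 to 2227270 in the 22 °C libraries. Read totals were unknown. The most common ratio between low values was 1.09 to 1.12 for a 27 °C over a 22 °C library, and 0.973 to 1.03 within a temperature. Low values thus stood higher at 27 °C by a nearly common factor. The part of this difference in the results was not tested beyond the scalings given with them.

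Most members were expressed at both temperatures. At least 1 FPKM was reached in all 6 libraries by 46160 of them (53.3%), and 71964 (83.0%) were above 0 in all 6. The filter admitted 2053 isoforms through the 27 °C libraries alone, with all 3 values there at 1 FPKM or more and all 3 at 22 °C below it. A further 1343 entered through the 22 °C libraries alone. These 3396 isoforms had to differ between the temperatures in order to enter, so calls among them are counted apart. At the edge of the filter, the third-highest of the 6 values was 1 FPKM just inside and 0.99 FPKM just outside, with 3960 isoforms within 0.1 FPKM above the edge and 4331 within 0.1 FPKM below it.

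At 27 °C, 378 isoforms rose (0.436% of those tested) and 490 fell (0.565%), together 868. Group means of the risen isoforms had a median of 7.13 FPKM at 27 °C, against 0.182 FPKM at 22 °C. For the fallen isoforms these medians were 0.00333 FPKM at 27 °C and 9.54 FPKM at 22 °C. Calls were made with limma's moderated test on log2(FPKM + 1) at a Benjamini-Hochberg adjusted p below 0.05. The change had a median of 2.10 on that scale among the rises, with a median standard error of 0.228, and of -2.60 among the falls, with 0.255. It was 3 or more in size for 85 rises and 185 falls, and below 1 for 4 rises and 1 fall. The smallest changes called were 0.70 and 0.65 in size.

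A large part of the calls came from isoforms that entered through a single temperature. They made up 586 of the 868 calls, namely 240 rises and 346 falls, and the remaining 282 calls were 138 rises and 144 falls. When at least 4 of the 6 libraries had to reach 1 FPKM, which admits no isoform through a single temperature, 0 of 73000 isoforms were called by limma. In that fit the smallest adjusted p was 0.108, and 12437 isoforms had an unadjusted p below 0.05. Leaving out a library also reduced the count, to 225, 284 and 704 calls without replicate 1, 2 or 3 at 22 °C, and to 273, 338 and 346 without replicate 1, 2 or 3 at 27 °C. All 6 of these fits called 141 isoforms, 42 that rose and 99 that fell, and 322 of the 868 were called in none of them. Of the 141, 135 had passed the filter through a single temperature, and each of these fits kept the isoforms admitted by all 6 libraries, so the number is no sign of stability. The other 6 were 3 rises and 3 falls.

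**Figure D1:**
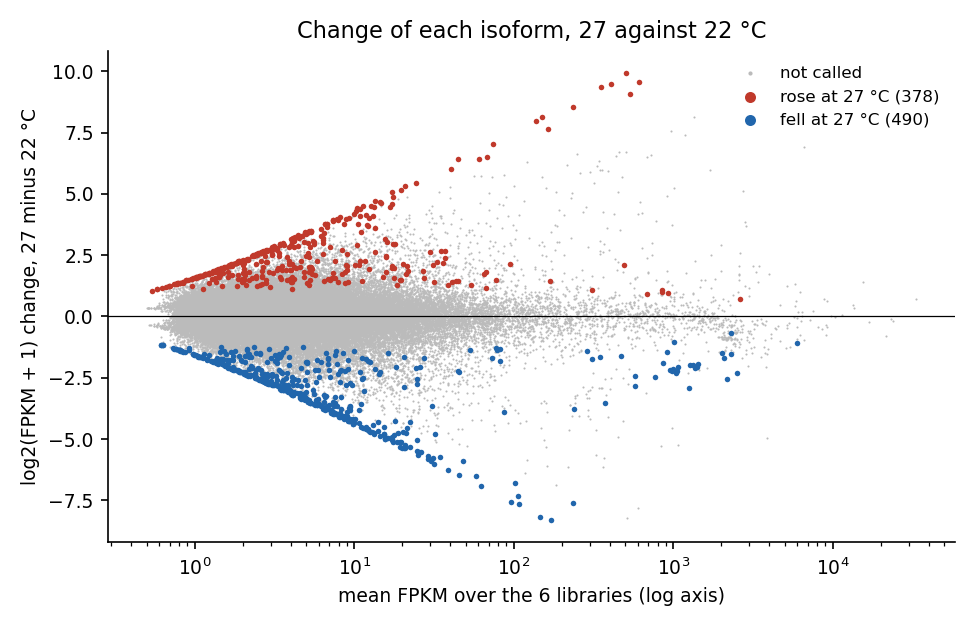
Each point is 1 of 86653 isoforms, with its mean FPKM over the 6 libraries on a log axis and its fitted log2(FPKM + 1) change, 27 minus 22 °C, on the vertical axis. The 378 rises and 490 falls run along both edges of the cloud, where isoforms near 0 at the other temperature lie, and a separate group of falls stands near 1000 FPKM.

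Without a test on each isoform, more members stood higher at 27 °C than lower. All 3 values at 27 °C lay above all 3 at 22 °C in 13482 isoforms (15.6%) and below them in 8188 (9.45%). That balance depended on scaling between libraries. After division by median-of-ratios factors, 9855 isoforms stood higher without overlap and 11578 lower, and after rescaling to equal library sums (TPM) 16537 and 6344. The median change over all members was 0.081 on the log2(FPKM + 1) scale as deposited, -0.033 after median-of-ratios scaling and 0.165 after rescaling to TPM. Falls outnumbered rises among the called isoforms under each scaling, with 318 rises and 560 falls after median-of-ratios scaling, 450 and 459 after TPM and 376 and 506 after quantile normalization. As deposited, most of this excess lay in isoforms that entered through a single temperature, 240 rises and 346 falls. The other calls were nearly even, at 138 rises and 144 falls. That split was not made under the other scalings.

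Calls were most frequent among the most abundant isoforms. Of the 2642 isoforms whose mean over the 6 libraries was 50 FPKM or higher, 26 (0.984%) rose and 47 (1.78%) fell. Between 10 and 50 FPKM, 68 of 10629 rose and 86 fell. Between 2 and 10 FPKM, 185 of 43975 rose and 265 fell. Between 1 and 2 FPKM, 72 of 25597 rose and 67 fell, and below 1 FPKM, 27 of 3810 rose and 25 fell. The called share increased with abundance from 0.543% at 1 to 2 FPKM to 2.76% at 50 FPKM and more, with the isoforms below 1 FPKM, at 1.36%, as the exception. These shares include isoforms that entered through a single temperature, and their part was not tested. Called isoforms above 0 in all 6 libraries were 14 rises and 39 falls at 50 FPKM and more. They were 43 and 24 at 10 to 50 FPKM and 87 and 74 at 2 to 10 FPKM. At 1 to 2 FPKM they were 12 and 10, and below 1 FPKM 0 and 0.

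**Figure D2:**
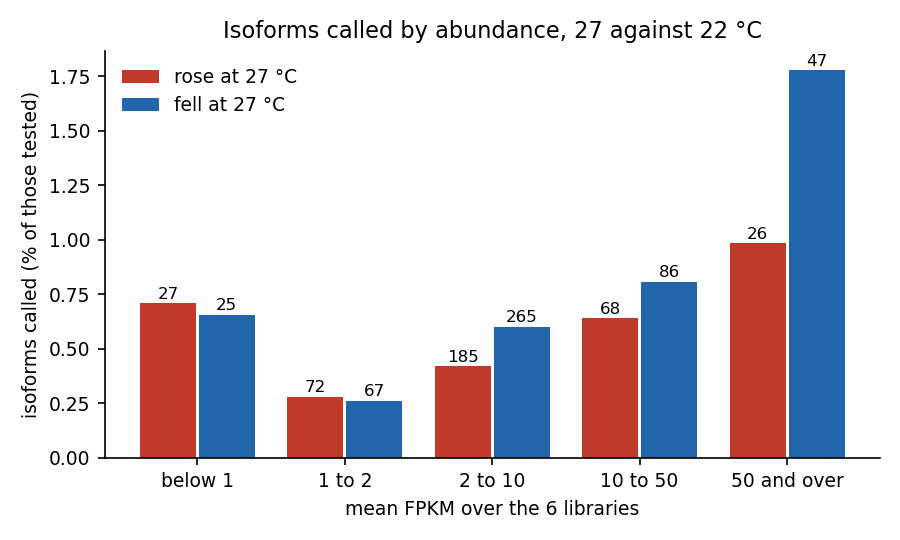
Bars give the percentage of the isoforms tested that rose (left) or fell (right) at 27 °C against 22 °C in 5 classes of mean FPKM, with the number of isoforms above each bar. At 50 FPKM and over, 47 isoforms fell and 26 rose. The bars include isoforms that entered through a single temperature.

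Most of the abundant isoforms that fell kept a measurable level at 27 °C, as did most members. Of the 47 abundant falls, 39 were above 0 in all 6 libraries. Of the 26 abundant rises, 14 were. Among all 86653 members the number was 71964 (83.0%), a share like that of the falls. It was not counted for all isoforms of 50 FPKM and more. Falls outnumbered rises here under the other scalings as well, 53 to 16 after median-of-ratios scaling, 49 to 34 after TPM and 50 to 30 after quantile normalization. They did not without replicate 1 at 22 °C, with 7 falls and 9 rises, or without replicate 2, with 8 and 9. Without replicate 3 at 22 °C there were 104 falls and 59 rises. When at least 4 of the 6 libraries had to reach 1 FPKM, 0 of 2613 such isoforms were called. With the replicate number as a block, 0 of 2642 were. The calls among abundant isoforms thus also depended on the filter and on the model fitted, and the cause of this was not tested.

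The most abundant isoform that fell had 3394, 3927 and 4207 FPKM at 27 °C, against 8680, 8792 and 6699 FPKM at 22 °C. The groups were far apart, and the mean at 27 °C, 3843 ± 413 FPKM, was 2.10-fold lower than that at 22 °C, 8057 ± 1177 FPKM (SD, n = 3 each). The log2 change was -1.06 ± 0.148 (SE), with an adjusted p = 0.0451 (limma). At 32 °C it stood at 4058, 3469 and 4338 FPKM, a level like that at 27 °C.

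The second most abundant fall was steeper. It had 621, 872 and 1012 FPKM at 27 °C, against 4521, 5097 and 2985 FPKM at 22 °C, a 5.03-fold lower mean. The lowest 22 °C value belonged to replicate 3 and still lay well above every 27 °C value. The fifth in rank had 452, 645 and 796 FPKM at 27 °C, against 3993, 4522 and 2636 FPKM at 22 °C, and was 5.89-fold lower. Both followed the same order of libraries within each temperature. Without annotation it is not known whether they are variants of 1 gene that share reads.

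That order of the 22 °C libraries recurred. Replicate 3 was the lowest of the 22 °C libraries in 36 of the 47 abundant falls (76.6%), and in 1259 of all 2642 abundant isoforms (47.7%). Replicate 2 was the highest in 31 of the 47 (66.0%), against 832 of the 2642 (31.5%). At 27 °C, replicate 1 was the lowest in 25 of the 47 (53.2%), against 935 of the 2642 (35.4%). The abundant falls thus varied together within a temperature as well as between temperatures, and the part of this shared variation in the calls was not tested.

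The 5 most abundant rises were moderate. The first had 3233, 3260 and 3281 FPKM at 27 °C, against 2006, 2151 and 1857 FPKM at 22 °C. Its mean was 1.62-fold higher, with a log2 change of 0.70 ± 0.0983 (SE) and an adjusted p = 0.0454 (limma). The 27 °C values spread by less than 50 FPKM, and of the 32 °C values, 3831, 3505 and 3184 FPKM, the first and second lay above them and the third just below. The other 4 were 1.87-fold to 2.13-fold higher at 27 °C, with 834 to 1354 FPKM there and 444 to 643 FPKM at 22 °C. At 32 °C the second had 1437, 626 and 915 FPKM and the third 969, 370 and 715 FPKM. The fourth had 1508, 1323 and 1109 FPKM there and the fifth 926, 926 and 850 FPKM.

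The sixth and seventh varied widely at 27 °C, being listed at 0 in all 3 libraries at 22 °C and standing at 2726, 216 and 703 FPKM and at 1871, 65.6 and 1297 FPKM at 27 °C. At 32 °C the sixth had 0, 21.3 and 0 FPKM and the seventh 2798, 20.8 and 0 FPKM. A listed 0 can reflect either no expression or an estimate that failed, so no fold change is given against such a group.

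**Figure D3:**
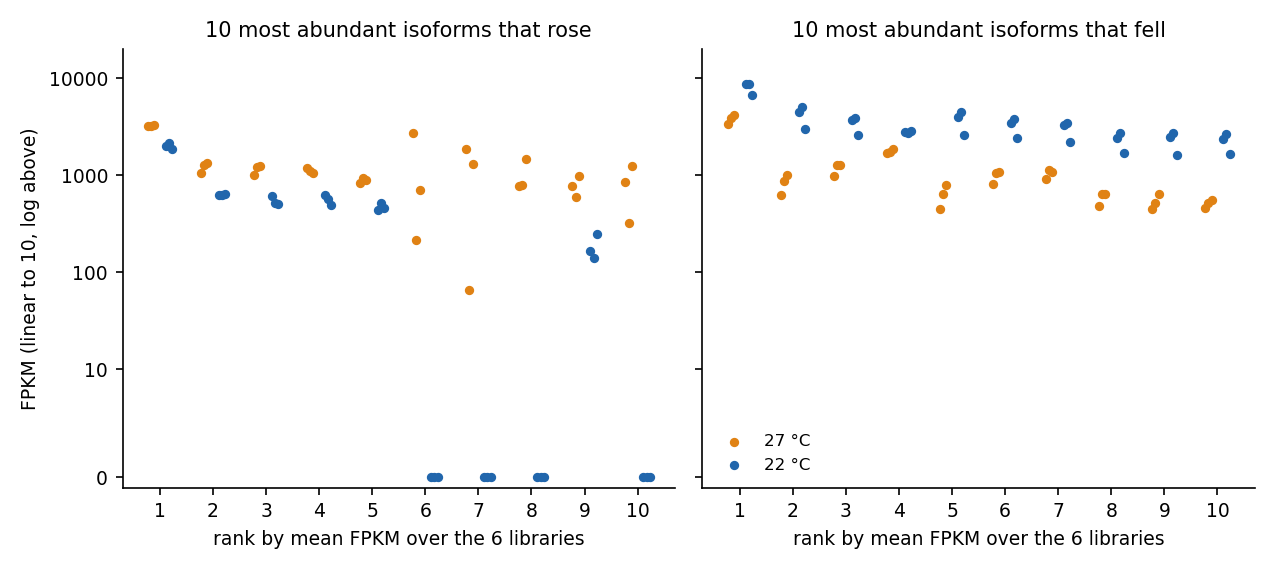
Points are FPKM values of single libraries at 27 °C (left of each pair) and 22 °C (right) for the 10 most abundant isoforms that rose and the 10 that fell, ranked by mean FPKM over the 6 libraries, on an axis that is linear to 10 and logarithmic above. All 10 falls kept at least 449 FPKM at 27 °C, whereas 4 of the 10 rises were listed at 0 in every 22 °C library.

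The 3 most abundant isoforms of the eyestalk were not among the calls. The first had 47238, 33650 and 44048 FPKM at 27 °C, against 28954, 27253 and 19512 FPKM at 22 °C. Its groups did not overlap and its mean was 1.65-fold higher at 27 °C, but the adjusted p was 0.160 (limma). The second, at 22326 ± 515 FPKM at 27 °C and 25297 ± 2576 FPKM at 22 °C (SD, n = 3 each), had a log2 change of -0.18 with a 95% interval of -0.40 to 0.05. The third had a change of -0.09 with an interval of -0.32 to 0.13.

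Turnover at the top of the ranking was partial. Of the 100 isoforms with the highest mean at 27 °C, 66 were also among the 100 highest at 22 °C, and 851 of the 1000 highest were shared. Of the 134 isoforms in either list of 100, 1 rose and 4 fell. Of the 1149 in either list of 1000, 17 rose and 34 fell. For comparison, 0.436% of all members rose and 0.565% fell. Of the isoforms of 50 FPKM and more, 0.984% rose and 1.78% fell.

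Few members were listed at 0 throughout 1 temperature, and with a minimum of 1 FPKM at the other they were more numerous at 27 °C. There were 236 isoforms (0.272% of the members) with 1 FPKM or more in every 27 °C library that were listed at 0 in every 22 °C library. A further 377 (0.435%) had 1 FPKM or more in every 22 °C library and were listed at 0 in every 27 °C library. With a minimum of 5 FPKM these numbers were 59 and 126, and with 10 FPKM 20 and 67. With no minimum beyond being above 0 the order was the other way round, 1763 against 1418. Of the 236, 159 were called as rises, and of the 377, 245 were called as falls. The 236 and the 377 entered through the temperature at which they were present, so their numbers describe the table and are no test of a difference.

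In the 32 °C libraries, which took no part in choosing them, such isoforms were neither uniformly present nor absent. Of the 236 that were present at 27 °C and listed at 0 at 22 °C, 45 (19.1%) reached 1 FPKM in all 3 libraries at 32 °C and 37 (15.7%) were listed at 0 in all 3. Of the 377 that were present at 22 °C and listed at 0 at 27 °C, 43 (11.4%) reached 1 FPKM in all 3 and 71 (18.8%) were listed at 0 in all 3. Among all members, 65.5% reached 1 FPKM in all 3 libraries at 32 °C and 1.14% were listed at 0 in all 3. In both sets the largest number, 145 of 236 and 238 of 377, reached 1 FPKM in some of the 32 °C libraries but not in all. Among all members, 25471 of 86653 did.

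The named isoforms are the largest changes among called isoforms that were above 0 in all 6 libraries, did not overlap between temperatures and averaged at least 10 FPKM at either, conditions met by 79 rises and 92 falls. Isoform_205035 had 38.82, 28.97 and 34.15 FPKM at 27 °C, against 0.09, 0.08 and 1.57 FPKM at 22 °C. Its log2(FPKM + 1) change was 4.59 ± 0.390 (SE), and it rose with an adjusted p = 0.0112 (limma). At 32 °C it had 0, 3.83 and 0.38 FPKM, far below each 27 °C value.

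Isoform_209743 had 22.55, 23.04 and 31.43 FPKM at 27 °C, against 0.61, 3.55 and 0.34 FPKM at 22 °C. It rose, by 3.62 ± 0.495 (SE), with an adjusted p = 0.0432 (limma). Its 32 °C values of 16.16, 0 and 2.8 FPKM covered both lower and intermediate levels.

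The steepest fall under these conditions was that of isoform_63725. It had 2.07, 0.52 and 0.29 FPKM at 27 °C, against 235.15, 227.76 and 148.33 FPKM at 22 °C, a 212-fold lower mean. The log2 change was -6.78 ± 0.394 (SE), with an adjusted p = 0.00351 (limma). At 32 °C it had 0, 1.61 and 0.59 FPKM, so all 6 libraries from the warmer temperatures were near 0.

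Isoform_66169 had 1.22, 0.03 and 3.39 FPKM at 27 °C, against 89, 36.95 and 61.71 FPKM at 22 °C. It fell by 4.79 ± 0.600 (SE), with an adjusted p = 0.0344 (limma), and at 32 °C had 0, 2.08 and 12.08 FPKM. The direction of all 4 isoforms held in 20 alternative settings, but the calls did not hold throughout. Isoform_63725 passed in 18 of the 20, isoform_205035 in 12, isoform_66169 in 8 and isoform_209743 in 7. None of them passed when at least 4 libraries had to reach 1 FPKM, with adjusted p-values of 0.108 to 0.118 (limma).

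**Figure D4:**
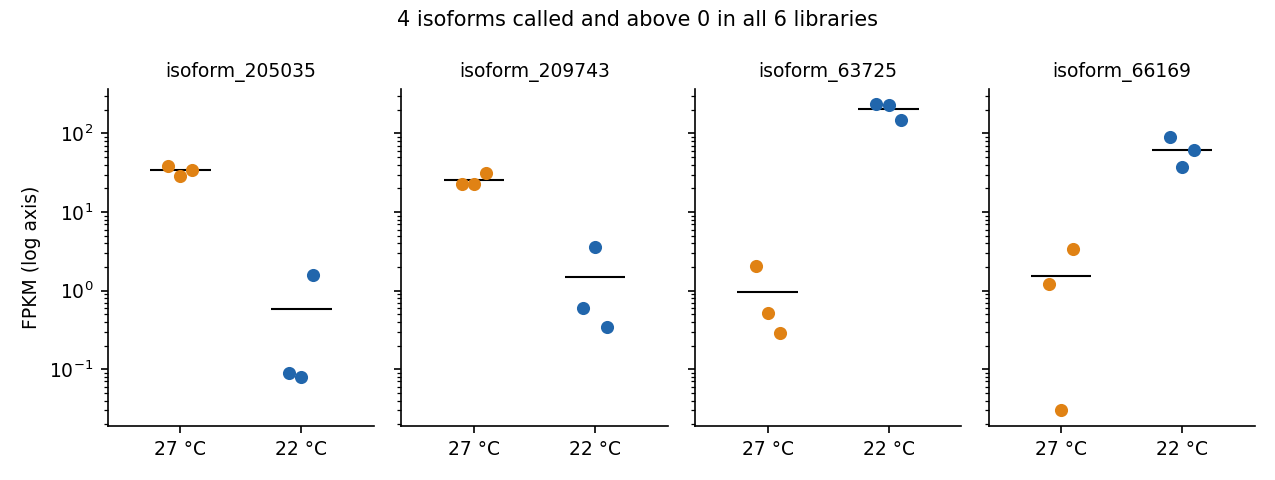
FPKM of 4 isoforms in the 27 °C libraries (left) and the 22 °C libraries (right) of each panel, on a log axis, with lines at the group means. Isoform_205035 and isoform_209743 were higher in all 27 °C libraries, and isoform_63725 and isoform_66169 lower, with no overlap.

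The called isoforms took up a small part of the transcriptome. The falls held a similar share to the rises at 27 °C and a larger one at 22 °C. The 490 falls held 0.859, 0.977 and 1.04% of summed FPKM at 27 °C, against 3.40, 3.82 and 2.76% at 22 °C. The 378 rises held 1.15, 0.868 and 1.11% at 27 °C, against 0.245, 0.254 and 0.263% at 22 °C. Both sets were chosen on these values, so the shares describe them without a test. The 10 most abundant falls held 49.4% ± 0.480 of their set's FPKM at 22 °C, and the 10 most abundant rises 61.1% ± 2.48 of theirs at 27 °C (SD, n = 3 each).

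In the 32 °C libraries the falls held 1.33, 1.39 and 1.50% of summed FPKM, nearer to their 27 °C share than to that at 22 °C. The rises held 1.04, 0.723 and 0.720% there. The median of the group means of the falls at 22, 27 and 32 °C was 9.54, 0.00333 and 3.06 FPKM, and that of the rises was 0.182, 7.13 and 4.54 FPKM. The isoforms were chosen on the 22 and 27 °C values and not on those at 32 °C. Of the falls, 57 were listed at 0 in all 3 libraries at 32 °C, and of the rises 27. For the 141 isoforms called in every fit with a library left out, the medians at 22, 27 and 32 °C were 18.1, 0 and 5.85 FPKM for the 99 falls and 0, 11.8 and 7.15 FPKM for the 42 rises.

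**Figure D5:**
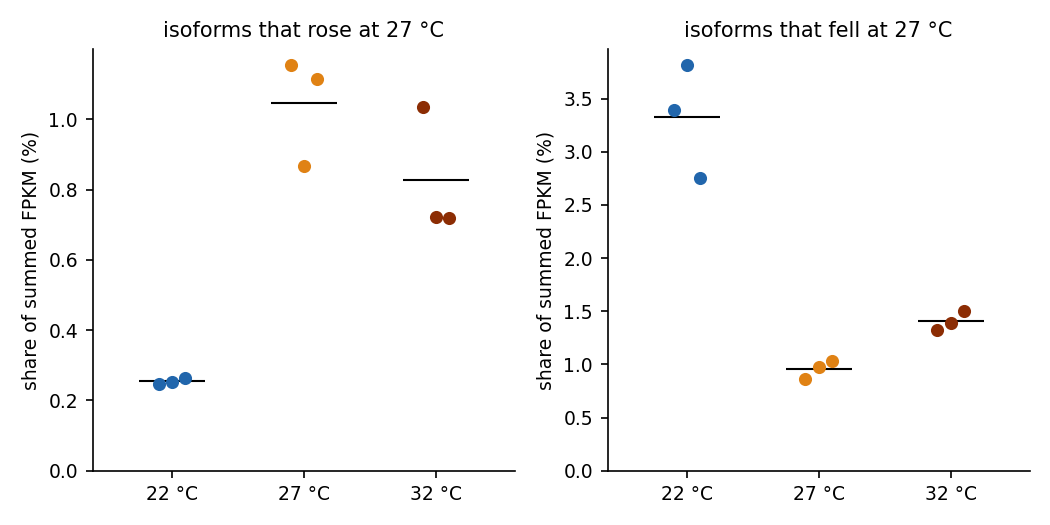
Share of summed FPKM, in percent, held by the 378 isoforms that rose (left) and the 490 that fell (right) at 27 °C against 22 °C, in each library at 22, 27 and 32 °C, with lines at the group means. The sets were chosen on the 22 and 27 °C libraries, and in the 32 °C libraries the falls held 1.33 to 1.50% and the rises 0.720 to 1.04%.

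Many isoforms were bounded to a change below 1 in size on the log2(FPKM + 1) scale. The 95% interval of the log2(FPKM + 1) change, taken for each isoform alone, lay within 1 of 0 for 1119 of the 2642 isoforms of 50 FPKM or more (42.4%), and within 0.5 of 0 for 225 (8.52%). Between 10 and 50 FPKM it lay within 1 of 0 for 3356 of 10629 (31.6%). For the other isoforms of these classes the interval reached or passed 1 in size on at least 1 side. Isoforms within 1 of 0 could still be called, as was the most abundant rise, with an interval of 0.461 to 0.944. The median standard error was 0.245 at 50 FPKM and more and 0.335 at 10 to 50 FPKM.

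Replicates varied to a similar extent at both temperatures. The median SD of log2(FPKM + 1) over an isoform's 3 libraries was 0.352 at 27 °C and 0.339 at 22 °C over all members. At 50 FPKM and more it was 0.281 at 27 °C and 0.274 at 22 °C. The SD at 27 °C was the larger in 51.6% of the members.

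Library-wide measures could not be separated by test, because an exact permutation test of 3 against 3 libraries cannot give a p below 0.1. Whether they differed between the temperatures is therefore not decided here. Isoforms of at least 1 FPKM numbered 84991, 84899 and 84082 at 27 °C, against 78012, 80542 and 83822 at 22 °C. The difference in means was 3865, and the two-sided exact permutation test gave its smallest possible p for 3 against 3 libraries, 0.1, or 0.3 after Benjamini-Hochberg adjustment over 3 measures. After median-of-ratios scaling the difference was -516. The share of the 100 most abundant isoforms was 30.3% ± 1.13 in 27 °C libraries and 30.8% ± 1.63 in 22 °C libraries (exact permutation p = 0.6, adjusted p = 0.6, n = 3 each). For the 10 most abundant it was 10.4, 9.58 and 10.6% at 27 °C, against 8.88, 8.69 and 7.87% at 22 °C. That difference was 1.69 percentage points, higher at 27 °C, and also had the smallest possible p (exact permutation p = 0.1). The effective number of isoforms, the exponential of the Shannon entropy of FPKM shares, averaged 4182 ± 308 in 27 °C libraries and 3605 ± 652 in 22 °C libraries (SD, n = 3 each), with an exact permutation p = 0.3 and an adjusted p = 0.45.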

How the data were processed

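Eyestalk RNA was sequenced on the DNBSEQ platform after Trizol extraction, per the labels' protocols. The series' design text instead describes muscle and other instruments. The authors deposited FPKM per isoform and library with 2 decimals, per the file headers. Bowtie2, an aligner, and RSEM, which estimates transcript abundance and can share reads between similar isoforms, are named per the submitters' processing notes. Versions, settings, transcript set and genome build are not given in the sources used. A total of 0 per-sample columns went unused.

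FPKM is relative within a library, so a few abundant isoforms can shift all other values. No 2 libraries were identical. Isoforms that reached 1 FPKM in 3 or more of the 6 libraries were fitted on log2(FPKM + 1), which understates changes of low isoforms, with limma 3.58.1 in R 4.3.3 (trended prior variance, two-sided, prior degrees of freedom 1.93). The p-values were adjusted over all 86653 isoforms by Benjamini-Hochberg and called below 0.05. Only the 27 and 22 °C libraries entered the fit. The script was tested on simulated data. Single values per library were compared with an exact permutation test in SciPy 1.17.1. Libraries with the same replicate number were left unpaired, because no label links them. The named isoforms were the 2 largest rises and 2 largest falls under the conditions given with them. The comparison, its members and the groups of isoforms described were chosen with earlier results of these data known. Alternatives covered pseudocount, filter, scaling, libraries fitted, variance model, a replicate block and leaving out each library.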

Additional observations from a re-analysis of the deposited data

How the results depend on the processing

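The main result was 378 rises and 490 falls. With a pseudocount of 0.1 there were 219 rises and 330 falls, with 0.01 105 and 160, with no filter 105 and 170, and with a minimum of 5 FPKM 179 and 260. Fitting all 9 libraries with the filter over all 9 gave 274 and 320. Requiring 4 libraries at 1 FPKM gave 0 and 0. Leaving out 1 library at a time gave 65 to 316 rises and 160 to 388 falls. Each of these settings tests fewer samples, other isoforms or another scale, and the cause of the differences was not tested. TPM, median-of-ratios and quantile scaling, all 9 libraries with the same isoforms, no trend, robust variance and library weights each gave both counts within 1.5 times the main ones, but not always for the same isoforms: the fit of all 9 libraries called 879, of which 475 were among the 868. In the other settings of this group 705 to 857 of the 868 were called again. No isoform of the 868 was called in the opposite direction (0) in any setting that made calls. With the replicate number as a block, limma called 0 isoforms (0 rises, 0 falls), with a smallest adjusted p of 0.0976 and 12500 isoforms at an unadjusted p below 0.05. Same-numbered libraries did not deviate together, with correlations of deviations of 0.0156, -0.00092 and -0.0188, so the numbers were not taken as pairs.

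The difference in isoforms of at least 1 FPKM, 3865, was reversed to -516 after median-of-ratios scaling, and ran from 2475 without replicate 1 at 22 °C to 5380 without replicate 3. The difference in the effective number of isoforms, 577, ran from 336 to 947 without these same libraries. The difference in the share of the 100 most abundant isoforms, -0.510 percentage points, was 1.69 for the 10 most abundant, and without a library ran from -1.44 to 0.112, including 0.0744 without replicate 2 at 22 °C. Shares and the effective number do not change under rescaling of a library. Read totals were unknown, so no counting error could be given.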
